A study of Mus musculus with 3 samples.

Results

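Barrier transporters and channels are the membrane proteins that decide which solutes cross a tissue barrier. The 8 genes described here encode nutrient carriers, drug efflux pumps and cation channels of the blood-nerve barrier: Slc2a1, Slc6a13, Slc16a1, Abcb1a, Abcg2, Kcnj2, Kcnj13 and Hcn4. They were taken by symbol from the 53380 features of the matrices, where each symbol occurred once. The samples were mesenchymal cells of the mouse sciatic nerve, sorted for TdTomato and profiled by droplet single-cell RNA sequencing. One library came from intact nerve, and the others came from the bridge, the tissue that grows between the nerve stumps, at 7 and 21 days post injury. In all of them the R26-TomatoLSL reporter was switched on by Pdgfrb-cre/ERT2, a Cre that pericytes and vascular smooth muscle can use as well as fibroblasts, and the nerves of a library were pooled. Every group is thus a single library without a replicate, and spread between animals is not measured. Myelin-removal beads were used for intact nerve alone, so beads and group cannot be told apart. Age, sex and the number of animals are not given in the sources used here.

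A peripheral nerve is sealed by 2 barriers, the perineurium, a sheath of flattened cells joined by tight junctions around each fascicle, and the endothelium of the vessels inside it. Solutes that the axons and Schwann cells need have to pass these cells through carriers, and lipophilic drugs are returned by ATP-driven pumps. Slc2a1 encodes the barrier glucose transporter and is a classical label of perineurium. Slc16a1 encodes a carrier of lactate, pyruvate and ketone bodies, and Slc6a13 a carrier of GABA and related amino acids. Abcb1a encodes P-glycoprotein and Abcg2 the breast cancer resistance protein, both efflux pumps. Kcnj2 and Kcnj13 encode inward-rectifier potassium channels, the second of which is known from choroid plexus and retinal pigment epithelium. Hcn4 encodes a hyperpolarisation-activated cation channel best known from the pacemaker of the heart.

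The upstream stretches of 4 members are shown, since these form the pairs on which the results below turn. Slc2a1 and Slc16a1 had a UMI ratio near 1 in perineurial cells of intact nerve and day 21, while the inward rectifiers Kcnj2 and Kcnj13 parted at day 21. Sequences are from RefSeq on GRCm38.p6, each on the gene's strand, 5′ to 3′, and end before the annotated start. Capitals mark GC boxes (GGGCGG on either strand) and the TATA box (TATAAA on either strand), which do not overlap.
Slc2a1, chr4:119108495-119108710, plus strand: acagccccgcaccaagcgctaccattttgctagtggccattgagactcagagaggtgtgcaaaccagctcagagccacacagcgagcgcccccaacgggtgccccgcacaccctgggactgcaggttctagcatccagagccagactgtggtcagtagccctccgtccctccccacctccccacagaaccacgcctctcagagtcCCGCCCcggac
Slc16a1, chr3:104638414-104638663, plus strand: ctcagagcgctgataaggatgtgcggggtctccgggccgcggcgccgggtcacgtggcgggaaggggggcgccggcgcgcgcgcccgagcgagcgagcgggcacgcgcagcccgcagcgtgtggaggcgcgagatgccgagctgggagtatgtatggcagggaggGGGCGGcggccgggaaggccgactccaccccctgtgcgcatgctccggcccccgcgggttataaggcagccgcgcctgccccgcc
Kcnj2, chr11:111065914-111066163, plus strand: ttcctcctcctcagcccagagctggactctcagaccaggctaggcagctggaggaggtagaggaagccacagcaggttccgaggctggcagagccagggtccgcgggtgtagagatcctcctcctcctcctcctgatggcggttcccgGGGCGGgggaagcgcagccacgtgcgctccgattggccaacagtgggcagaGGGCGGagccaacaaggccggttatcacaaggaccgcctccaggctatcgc
Kcnj13, chr1:87394730-87394979, minus strand: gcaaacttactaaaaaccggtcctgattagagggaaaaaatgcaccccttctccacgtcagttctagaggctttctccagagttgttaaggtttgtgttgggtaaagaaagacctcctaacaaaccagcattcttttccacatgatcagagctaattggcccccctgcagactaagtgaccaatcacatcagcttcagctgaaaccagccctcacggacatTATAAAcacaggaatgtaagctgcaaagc
In the 250 bases before the RefSeq start, Slc2a1 had 2 GC boxes, Slc16a1 had 1 and Kcnj2 had 2, against 32.7% of all 32851 RefSeq windows of that length with a GC box. Kcnj13 had no GC box and 1 TATA box, which 12.4% of all windows held. The window of Slc16a1 was 76.4% G and C, that of Slc2a1 66.4%, that of Kcnj2 65.6% and that of Kcnj13 45.2%, beside a median of 52.4% over all windows. The second GC box of Slc2a1 lies past the printed stretch. The E-box CACGTG occurred once each in Slc16a1 and Kcnj2, against 6.02% of all windows, and its 2 strands account for both matches to the hypoxia element core ACGTG there. Slc2a1 and Kcnj13 each had 1 match to ACGTG, which 16.6% of all windows held. CCAAT, in 33.8% of all windows, was found once in Kcnj2 and 2 times in Kcnj13, and TGANTCA, in 6.75%, in none of the 4. All were searched on both strands, and these matches describe letters in a window and not sites in use.

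All 8 genes are protein coding, and positions are from GENCODE M21 on mm10, with the identifier version of the matrices. Slc2a1 lies on chromosome 4 at 119108711-119137983, plus strand, Slc6a13 on chromosome 6 at 121300227-121337733, plus strand, and Slc16a1 on chromosome 3 at 104638668-104658462, plus strand. Abcb1a lies on chromosome 5 at 8660077-8748575, plus strand, and Abcg2 on chromosome 6 at 58584523-58695676, plus strand. Kcnj2 lies on chromosome 11 at 111066164-111076821, plus strand, and Hcn4 on chromosome 9 at 58823412-58863175, plus strand. Kcnj13 lies on chromosome 1 at 87386363-87394729, minus strand, wholly inside the body of Gigyf2, which is transcribed from the opposite strand. Gigyf2 was at 40.0, 31.5 and 37.3 CPM in perineurial cells of the 3 libraries, nearly level where Kcnj13 was not. The sources used here do not say whether the counting used strand.

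The authors' cell annotation held 1343 cells of intact nerve, 1780 of day 7 and 4111 of day 21, with median depths of 5667, 19316 and 7442 UMIs (unique molecular identifiers, each counting 1 captured transcript). Their class MES_PERI, called perineurial here, held 116, 241 and 2069 of these cells, with 725278, 3751538 and 13375190 UMIs in all. Their median depths were 5291, 15443 and 5829 UMIs. Levels below are CPM, the UMIs of a gene relative to all UMIs of the same cells, and the intervals in brackets are exact 95% intervals that cover counting error only. The libraries shared 41 to 58 barcodes in pairs, of which 1 or 2 a pair were annotated.

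The class name was checked against 8 perineurial markers that do not include the 8 genes (Cldn1, Itgb4, Lypd2, Msln, Krt19, Moxd1, Ocln and Perp). UMIs of at least 3 of them were found in 87.9% of intact, 44.4% of day 7 and 84.3% of day 21 perineurial cells. The markers summed to 4857 CPM in intact, 668 at day 7 and 2600.5 at day 21. The 8 injury markers (Tnc, Postn, Cthrc1, Lrrc15, Areg, Ptn, Spp1 and Aldh1a3) ran the other way, at 871, 2095 and 824 CPM, with 3 or more of them in 5.17%, 88.4% and 7.44% of cells. Markers of endoneurial fibroblasts summed to 2560 CPM in the intact, 4102 in the day 7 and 1340 in the day 21 perineurial class, with 3 or more of the 8 in 33.6%, 71.4% and 24.5% of cells. These shares of cells were not corrected for depth, with medians of 5291, 15443 and 5829 UMIs in the 3 libraries. More day 7 cells of this class thus held 3 or more endoneurial than 3 or more perineurial markers, against the class name, and every day 7 value below is that of the authors' class MES_PERI.

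Among the annotated classes of intact nerve with at least 50 cells, each of the 8 genes had its highest level in perineurial cells, far above the endoneurial class (MES_ENDO, fibroblasts within the fascicle) and the epineurial class (MES_EPI, fibroblasts of the outer sheath). The classes were made from all genes of these cells, and the members were chosen with earlier results of these data known. These contrasts, and the shares of features beside them, are therefore descriptions. Against all other annotated cells, 8 of 8 members were more than 2-fold higher in intact nerve, where 18.3% of 15145 features measured were. Features count as measured with more than 3 UMIs in either group. The median log2 ratio of the members was 6.18, beside 0.18 over all features.

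Of the nutrient carriers, Slc2a1 and Slc16a1 were found in most intact perineurial cells, and Slc6a13 in 44.0% of them. Slc2a1 was at 818 CPM in perineurial cells (753 to 886), 11 in endoneurial and 9.12 in epineurial cells, and 86.2% of perineurial cells held a UMI against 5.28% and 6.48%. Slc16a1 was at 762 CPM (700.2 to 829), 10.7 and 14.9 in the same order, with UMIs in 78.4%, 4.83% and 10% of cells. Neither of these carriers differed between endoneurial and epineurial cells beyond counting error. Slc6a13 was at 146 CPM in perineurial cells (120 to 177) and 2.02 in endoneurial cells, and had 0 UMIs in 540 epineurial cells, which allows up to 0.76 CPM at 3 counts.

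The efflux pumps were less tied to the sheath. Abcb1a was at 216 CPM in perineurial cells (184 to 253) and 19.8 in epineurial cells (15.6 to 24.7), with 0 UMIs in 663 endoneurial cells, which allows up to 0.865 CPM at 3 counts. Abcg2 was at 196 CPM in perineurial (165 to 231), 21.0 in endoneurial and 17.2 in epineurial cells, the last pair within counting error. Of all Abcg2 UMIs in annotated intact cells, 48.8% came from perineurial cells, against 88.8% for Slc2a1. The near copy Abcb1b, the other mouse P-glycoprotein gene, had 0 UMIs in intact perineurial cells and 4 and 14 UMIs at days 7 and 21. Reads that match both copies may have been assigned to neither, and the sources used here do not say how the counting treated them.

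Among annotated cells the channels were found mainly in the perineurial class. Kcnj2 was at 89.6 CPM there (69.2 to 114), with 2 UMIs in all endoneurial and 0 in all epineurial cells, so that 97.0% of its UMIs in annotated cells were perineurial. The 862 intact barcodes without a class held a further 73 Kcnj2 UMIs, more than the 65 of the perineurial class. Kcnj13 was at 150 CPM (123 to 181), with 2 endoneurial and 1 epineurial UMIs. Hcn4 was at 194 CPM (164 to 229), with 0 UMIs in endoneurial cells and 5.83 CPM in epineurial cells, and 86.0% of its UMIs in annotated cells were perineurial. Its UMIs were found in 35.3% of perineurial cells, against 45.7% for Kcnj13 and 28.4% for Kcnj2.

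Single perineurial cells held UMIs of several of the genes. The counts below follow largely from the share of cells with each gene, and whether the genes occur together beyond that was not tested. An intact perineurial cell held UMIs of 4.19 of the 8 members on average, and 66.4% of these cells held 4 or more, while 0 of 663 endoneurial and 0 of 540 epineurial cells did. After thinning every cell to 2000 UMIs, which all annotated cells reach, the mean was 2.70 members in intact, 0.589 at day 7 and 1.43 at day 21 perineurial cells. All 8 members were seen in 3 intact and 3 day 21 cells.

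**Figure D1:**
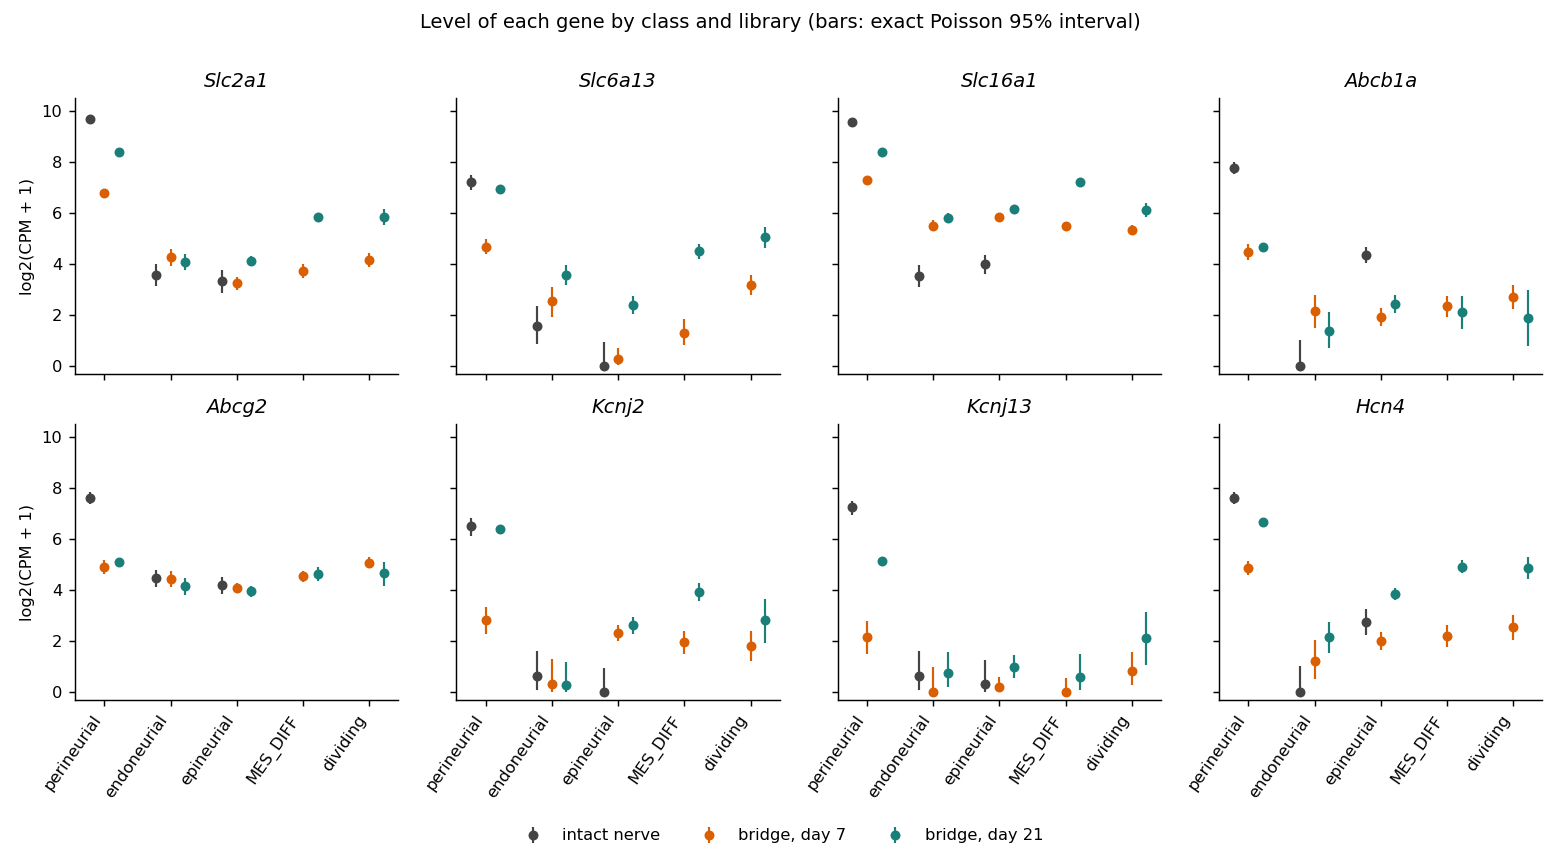
Each panel plots 1 gene, with the authors' classes on the x axis and log2(CPM + 1) on the y axis; points are the 3 libraries and bars are exact Poisson 95% intervals, for classes with at least 50 cells. Perineurial cells of intact nerve (black) stand highest in all 8 panels, day 7 (orange) is lower there, and day 21 (green) comes near intact for Slc6a13 and Kcnj2 but not for Abcb1a and Abcg2.

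At day 7 after injury all 8 genes were lower in the perineurial class than in intact nerve, by 4.86-fold to 43.4-fold. More than 2-fold lower were 8 of 8 members, beside 18.8% of the 13198 features measured and 12.9% of the 7714 with at least 50 counts in both groups together. The median log2 ratio was -2.84 for the members and -0.11 for all features. In bulk sums such as these, fewer cells with a gene and fewer transcripts per cell cannot be told apart by the CPM alone, so shares of cells are given too.

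The potassium channels stood lowest against intact. Kcnj13 was at 3.47 CPM at day 7 (1.85 to 5.93), 43.4-fold lower (24.3 to 84.1), from 13 UMIs in 241 cells. Kcnj2 was at 6.13 CPM (3.89 to 9.20), 14.6-fold lower (8.96 to 24.6). The share of cells with a UMI was 2.90% for Kcnj13 and 6.22% for Kcnj2, against 45.7% and 28.4% in intact nerve, although the median depth of day 7 cells was 15443 UMIs against 5291. Hcn4, the third channel, was at 28.5 CPM, 6.82-fold lower (5.26 to 8.85), and 94.4% of its UMIs sat in the 10% of cells richest in it. Abcg2, with a near equal number of UMIs in this class (109 against 107), had 62.4% of them in its richest 10% of cells.

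The pumps and carriers were lower too. Abcb1a was at 21.3 CPM, 10.2-fold lower (7.71 to 13.5), and Abcg2 at 29.1 CPM, 6.74-fold lower (5.21 to 8.73). Slc2a1 was at 109 CPM, 7.50-fold lower (6.6 to 8.53), Slc6a13 at 24.8 CPM, 5.90-fold lower (4.42 to 7.87), and Slc16a1 at 157 CPM, 4.86-fold lower (4.32 to 5.47). Thinned to 2000 UMIs, the share of perineurial cells with Slc2a1 was 69.0% in intact and 17.1% at day 7, and that with Slc16a1 60.9% and 21.1%.

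Most of the day 7 class carried injury markers, and the size of the difference moved with them. Without the perineurial cells that held 4 or more of the 8 injury markers, 58 of the 241 day 7 cells were left. Among those, Slc2a1 was at 257 CPM, Slc16a1 at 343, Hcn4 at 105 and Kcnj13 at 18.6 CPM, all above the values of the whole day 7 class. Of the 8 members, 7 were still more than 2-fold below intact, and the log2 ratio of Hcn4 was -0.88. With at least 4 of 8 perineurial markers asked of any annotated cell, 96 cells of intact nerve and 96 of day 7 entered and 8 of 8 members were more than 2-fold lower at day 7.

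By day 21 the genes had parted into those back near the intact level and those still low. In perineurial cells 5 of 8 members were more than 2-fold lower than in intact nerve, where 19% of 15881 features measured were, and 8.75% of the 10622 with at least 50 counts in both groups together. None of the 8 was more than 2-fold higher, where 9.2% of features measured were. The median log2 ratio of the members was -1.23, beside -0.16 over all features.

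Slc6a13 and Kcnj2 were near the intact level. Slc6a13 was at 121 CPM at day 21 (116 to 127) against 146 in intact nerve, a log2 ratio of -0.27 (-0.55 to 0.03). Kcnj2 was at 84.1 CPM (79.3 to 89.2) against 89.6, a log2 ratio of -0.10 (-0.45 to 0.29). Both intervals hold 0, and they bound the fold at 1.47 lower for Slc6a13 and 1.37 lower for Kcnj2. The shares of cells lay as close: 41.9% of day 21 and 44.0% of intact cells held Slc6a13, and 26.9% and 28.4% held Kcnj2.

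Slc2a1, Slc16a1 and Hcn4 lay between day 7 and intact nerve. Slc2a1 was at 337 CPM (327 to 347), 2.43-fold below intact (2.22 to 2.64), and 68.7% of cells held it. Slc16a1 was at 338 CPM (328 to 348), 2.25-fold below (2.06 to 2.46), with 71.2% of cells. Hcn4 was at 101 CPM (95.7 to 107), 1.92-fold below (1.61 to 2.29), with 24.9% of cells against 35.3% in intact nerve. For each of the 3 the intervals of the libraries did not overlap.

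Kcnj13 and the efflux pumps stayed low. Kcnj13 was at 34.8 CPM (31.7 to 38.2), 4.31-fold below intact (3.47 to 5.32), although 10.1-fold above day 7 (5.82 to 19.0). Abcb1a was at 24.7 CPM (22.1 to 27.5), 8.77-fold below intact (7.21 to 10.6). Abcg2 was at 33.3 CPM (30.3 to 36.5), 5.88-fold below intact (4.84 to 7.12). Against day 7 neither pump differed beyond counting error, with log2 ratios of 0.20 (-0.15 to 0.58) for Abcb1a and 0.19 (-0.11 to 0.51) for Abcg2. A perineurial cell of day 21 held Abcb1a in 11.1% of cases, against 56.9% in intact nerve, and after thinning the shares were 4.01% and 31.9%.

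The inward rectifiers thus parted. Both were lowest at day 7, but at day 21 the Kcnj2 interval spanned the intact level while the whole Kcnj13 interval lay more than 3-fold below it. The thinned share of cells was 12.8% against 14.2% for Kcnj2 and 5.97% against 23.2% for Kcnj13.

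**Figure D2:**
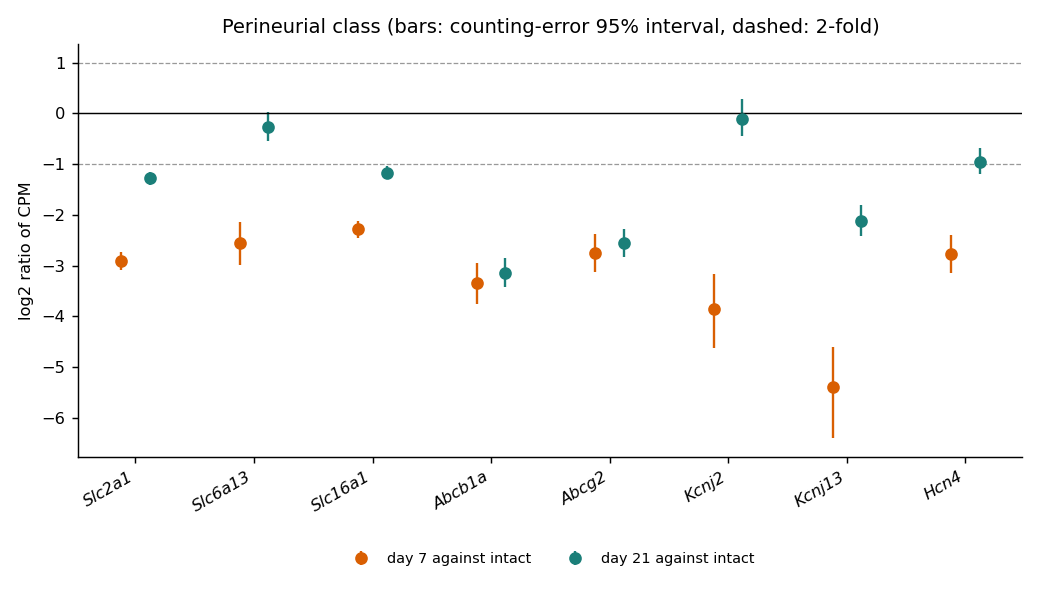
The log2 ratio of CPM in the perineurial class is plotted for each gene, day 7 against intact in orange and day 21 against intact in green; bars are 95% intervals for counting error and dashed lines mark 2-fold. All 8 day 7 points lie below the lower dashed line; at day 21 Kcnj2 and Slc6a13 touch 0, and Abcb1a and Abcg2 overlap their day 7 intervals.

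Markers of other cell types were found in the perineurial class as well. The 8 smooth muscle markers (Acta2 and Tagln among them) summed to 1954 CPM in intact perineurial cells, 240 at day 7 and 132 at day 21, with 3 of 8, 7 of 8 and 7 of 8 markers detected (Cnn1, Actg2, Lmod1, Des and Pln at 0 in intact). Without cells in which they passed 1% of UMIs, which left 112 of the 116 intact cells, the day 21 to intact log2 ratios were -3.10 for Abcb1a, -2.56 for Abcg2 and -1.27 for Slc2a1, close to those with them. Pericyte markers summed to 969, 387 and 681 CPM, with Rgs5, Higd1b and Ndufa4l2 at 0 in the intact class. The part of pericyte and endoneurial markers in the results was not tested. The 8 endothelial markers summed to 5.52, 50.4 and 18.2 CPM, with 7 of the 8 at 0 in the intact class.

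Between day 7 and day 21, 6 of 8 members were more than 2-fold higher in the perineurial class, where 14.5% of 16068 features measured were. The median log2 ratio was 1.72 for the members and 0.10 for all features. Kcnj2 was 13.7-fold higher (9.10 to 21.7), Slc6a13 4.89-fold (3.97 to 6.1), Hcn4 3.54-fold (2.91 to 4.35), Slc2a1 3.09-fold (2.79 to 3.43) and Slc16a1 2.16-fold (1.98 to 2.36). This count changed when injury-marked cells were left out, which kept 58 day 7 cells with 10 UMIs of Kcnj2 and 12 of Kcnj13. Without cells that held 4 or more injury markers it was 2 of 8, Kcnj2 and Slc6a13, and the log2 ratios of Slc16a1 and Hcn4 were -0.031 and -0.10. The part that these cells play in the difference between libraries was not tested further.

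Slc2a1 and Slc16a1 kept a near constant proportion in perineurial cells of intact nerve and day 21. The ratio of Slc16a1 to Slc2a1 UMIs was 0.933 in intact (0.829 to 1.05) and 1.004 at day 21 (0.963 to 1.05), while both genes were more than 2-fold lower at day 21. In day 7 perineurial cells it was 1.44 (1.27 to 1.64). Epineurial cells had a ratio of 1.64 in intact nerve (1.06 to 2.55). Their ratio was 6.63 (5.45 to 8.14) at day 7 and 4.30 (3.63 to 5.11) at day 21.

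Slc16a1 was higher in bridge fibroblasts than in those of intact nerve. In epineurial cells Slc16a1 was at 14.9 CPM in intact nerve, 56.3 at day 7 and 71.0 at day 21, 3.77-fold (2.89 to 5) and 4.75-fold higher (3.64 to 6.3). In endoneurial cells it was at 10.7, 44.7 and 54.9 CPM, 4.19-fold (2.92 to 6.16) and 5.15-fold higher (3.63 to 7.49). Slc2a1 differed less in the same cells, at 9.12, 8.49 and 16.5 CPM in epineurial and 11, 18.5 and 16.1 CPM in endoneurial cells. The share of all Slc16a1 UMIs that came from perineurial cells was 84.9% in intact, 28% at day 7 and 73.1% at day 21.

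UMIs of other members were also found outside the perineurial class in the bridge. Kcnj2 had 0 UMIs in intact epineurial cells and was at 3.99 CPM at day 7 and 5.24 at day 21, at least 5.25-fold and 6.90-fold higher against 3 counts in the intact class. Slc6a13 had 0 UMIs there too and was at 4.27 CPM at day 21, at least 5.62-fold higher. Hcn4 was at 5.83, 3.03 and 13.4 CPM in epineurial cells, a 2.30-fold higher level at day 21 than in intact. Abcb1a lay the other way, at 19.8 CPM in intact epineurial cells, 2.81 at day 7 and 4.47 at day 21, 7.04-fold and 4.42-fold lower. Abcg2 stayed between 14.5 and 21.0 CPM in the endoneurial and epineurial classes of all 3 libraries, with every interval of the log2 ratio to intact holding 0. Of the members, 5 of 8 were more than 2-fold higher in day 21 than in intact epineurial cells, beside 9.1% of features measured, and 1 was more than 2-fold lower, beside 10.2%. The 5 include Kcnj13, with 1 and 10 UMIs and an interval of the fold from 0.545 to 166. At day 7, 2 of 6 members measured, Slc16a1 and Kcnj2, were more than 2-fold higher than in intact epineurial cells, beside 12.2% of features, and Abcb1a was more than 2-fold lower, beside 15.2%. Between day 7 and day 21, 3 of 8 were more than 2-fold higher, beside 10.3% of features, and 0 lower, beside 8.04%. These were Slc6a13, 19.3-fold (6.18 to 97.1), Kcnj13, 6.57-fold (1.4 to 61.7), and Hcn4, 4.43-fold (3.1 to 6.43).

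In endoneurial cells, 6 of the 8 genes were measured. Of these, 4 were more than 2-fold higher at day 7 than in intact nerve, beside 12.8% of features measured, and 4 at day 21, beside 8.96%. These were Slc6a13, Slc16a1, Abcb1a and Hcn4, but Abcb1a and Hcn4 had 0 UMIs in intact endoneurial cells, and of the 4 members counted in both libraries 2 were higher at each time. Slc6a13 was at 2.02, 4.82 and 11 CPM, 5.47-fold higher at day 21 (2.46 to 14.3), while its day 7 interval held 0. Abcb1a had 0, 13 and 7 UMIs and Hcn4 0, 5 and 15, so that against 3 counts Abcb1a was at least 4.02-fold higher at day 7 and at least 1.86-fold at day 21, and Hcn4 at least 1.55-fold and at least 3.99-fold. For Abcb1a at day 21 and Hcn4 at day 7 these bounds do not reach 2-fold. Between day 7 and day 21, 2 of the 6 were more than 2-fold higher, beside 9.87% of features, namely Slc6a13, 2.29-fold (1.31 to 4.18), and Hcn4, whose interval held 0. Abcb1a was lower by more than 2-fold, beside 9.35%, with an interval that held 0.

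Low levels in these classes have to be read beside those in cells of other types, since free RNA can give UMIs in any droplet. At day 21 the unclassed barcodes with pericyte, Schwann and myeloid markers numbered 213, 1530 and 188, with median depths of 4617, 5396 and 6205 UMIs, against 9666 in epineurial and 8649 in endoneurial cells. Slc6a13 was at 9.88, 6.78 and 9.11 CPM in them, above the 4.27 CPM of epineurial cells and near the 11 CPM of endoneurial cells, and UMIs were found in 2.82%, 3.20% and 3.72% of barcodes against 2.73% and 5.95% of cells. Slc2a1 was at 20.7, 19.3 and 25.0 CPM, above its level in both fibroblast classes. For both genes the day 21 fibroblast intervals overlapped those of each of these sets. The overlap was narrow for Slc6a13 in endoneurial cells (8.13 to 14.6 CPM) against barcodes with Schwann markers (5.22 to 8.65), and overlap does not show levels to be equal. At day 7 such barcodes had lower levels than at day 21, with Slc6a13 at 1.03, 0 and 1.32 CPM and Slc2a1 at 10.3, 8.2 and 15.4 CPM. The fibroblast folds given for both genes, to intact nerve and between day 7 and day 21, are therefore not read as expression. The part of free RNA was not tested.

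Slc16a1 differed, at 22.5, 30.4 and 29.6 CPM in these barcodes against 71.0 in epineurial and 54.9 in endoneurial cells at day 21. At day 7 it was at 11.4, 9.80 and 12.4 CPM against 56.3 and 44.7. Hcn4 was at 2.69, 6.57 and 2.28 CPM at day 21, below the 13.4 CPM of epineurial cells but around the 3.45 CPM of endoneurial cells. At day 7 Hcn4 was at 0.517, 0 and 0 CPM in these barcodes, against 3.03 in epineurial cells. Kcnj13 was at 1.03, 0 and 0 CPM at day 7 and 0, 1.06 and 2.28 at day 21, against 0.148 and 0.971 in epineurial cells. Kcnj2 was at 0.898, 3.07 and 6.07 CPM at day 21 against 5.24 in epineurial cells (3.94 to 6.84). The epineurial level was above that of barcodes with pericyte (0.0227 to 5.003) and Schwann markers (2.06 to 4.41). It was below that of barcodes with myeloid markers. Its interval overlapped that of each set, narrowly for Schwann markers, and overlap does not show levels to be equal. At day 7 Kcnj2 was at 0.517, 0.684 and 3.09 CPM against 3.99 in epineurial cells. Abcb1a was at 3.10, 0 and 1.76 CPM at day 7 against 3.48 in endoneurial cells.

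Perineurial markers summed to 21.8, 25.7 and 160 CPM in epineurial cells of intact nerve, day 7 and day 21, and to 32.0, 153 and 205 CPM in endoneurial cells. Their part in the levels of the members there was not tested, and some cells held many members. At day 21, 14 of 1027 epineurial cells held 4 or more of the 8 genes, and 5 of 487 endoneurial cells did.

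The MES_DIFF class, whose name is not explained in the sources used here, and the dividing class MES_DIV had at least 50 cells at day 7 and day 21. In MES_DIFF, 5 of 7 members measured were more than 2-fold higher at day 21 than at day 7, where 13.5% of features measured were. Slc6a13 was 14.5-fold higher, at 21.7 against 1.5 CPM, and Hcn4 8.11-fold higher, at 29.4 against 3.62 CPM. Kcnj2 was 4.98-fold, Slc2a1 4.57-fold and Slc16a1 3.42-fold higher, while the intervals of Abcb1a and Abcg2 held 0. The genes that were higher in MES_DIFF are those that were also higher in the perineurial class between these libraries, other than Kcnj13, which had 0 and 2 UMIs in MES_DIFF. Perineurial markers moved alongside, at 196 CPM in day 7 and 956 CPM in day 21 MES_DIFF cells. Slc2a1, Slc6a13, Slc16a1 and Hcn4 were also higher at day 21 than day 7 in unclassed barcodes with pericyte, Schwann or myeloid markers. The part of free RNA in the MES_DIFF and MES_DIV differences was not tested.

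In dividing cells 5 of 8 members were more than 2-fold higher at day 21 than at day 7, where 11% of features measured were, and 0 were lower, beside 9.36%. Markers of other types differed alongside, at 226 and 574 CPM for perineurial and 420 and 1946 CPM for Schwann markers at day 7 and day 21, with 3 or more Schwann markers in 22.8% and 51.3% of cells, and their part was not tested. Slc2a1 was at 56.7 against 17.0 CPM, 3.33-fold higher, Slc6a13 at 32.4 against 8.12 CPM, 3.99-fold, and Hcn4 at 28.3 against 4.83 CPM, 5.87-fold. Kcnj2 and Kcnj13 rested on 4 to 13 UMIs in each library, and their intervals held 0. Abcg2 was at 32.9 CPM in day 7 dividing cells (28.1 to 38.2), a level that overlapped that of day 7 perineurial cells, so that perineurial cells were not the highest class for Abcg2 at day 7. At day 21 the perineurial and dividing levels of Abcg2 overlapped as well.

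Over all annotated cells the sums gave another picture. The perineurial class made up 8.64% of intact, 13.5% of day 7 and 50.3% of day 21 cells. At day 7, 6 of 8 members were more than 2-fold lower than in intact nerve, beside 18.1% of features measured, and none was more than 2-fold higher, beside 15.3%. At day 21, 4 of 8 were more than 2-fold higher than in intact nerve, beside 12.9% of features measured, and 1, Abcb1a, was more than 2-fold lower, beside 11.5%. Kcnj2 was at 37.0 against 8 CPM, 4.63-fold higher (3.62 to 6.01), Slc6a13 4.03-fold, Hcn4 2.52-fold and Slc16a1 2.36-fold higher. With the classes of both libraries weighted to 1 common mixture, none of the 8 was more than 2-fold higher and 4 were more than 2-fold lower, and the log2 ratios of Slc6a13, Slc16a1 and Hcn4 were -0.072, -0.67 and -0.69. Between day 21 and day 7, 7 of 8 were more than 2-fold higher over all annotated cells, beside 13.5% of features measured, with Abcg2 at 23.7 and 22 CPM the exception.

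**Figure D3:**
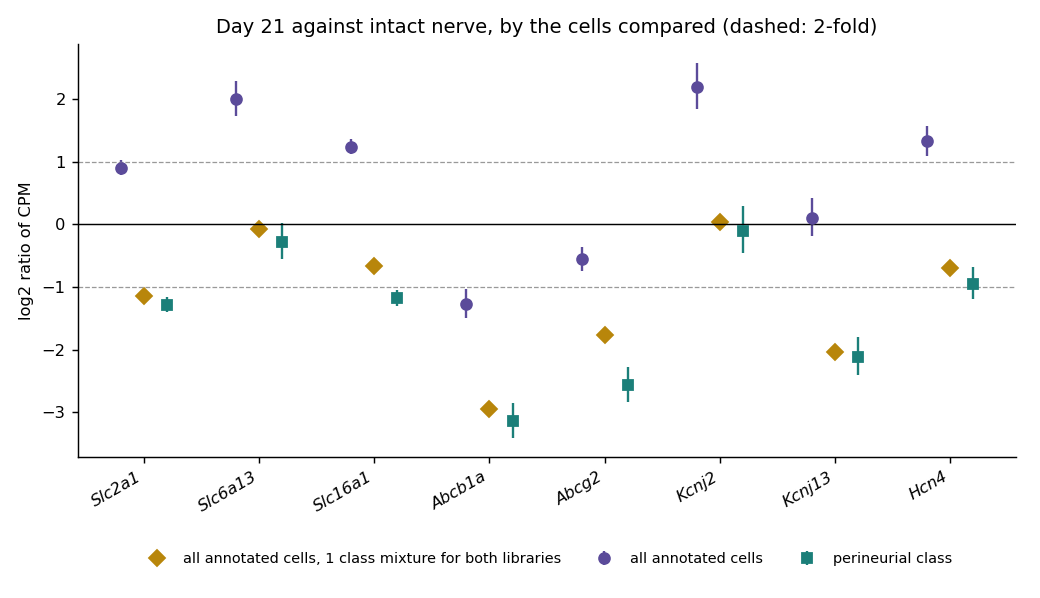
The log2 ratio of CPM at day 21 against intact nerve is plotted for each gene over all annotated cells (purple circles), over the same cells weighted to 1 class mixture (gold diamonds, no interval) and in the perineurial class (green squares); bars are 95% intervals for counting error. For Slc6a13, Slc16a1 and Hcn4 the circles lie above 0 and the diamonds below it.

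Some barcodes without a class held markers of endothelium, the cell type of the other barrier, but barrier vessels were not told apart from other vessels. Of these, 42 in intact nerve, 84 at day 7 and 186 at day 21 held UMIs of at least 4 of 8 endothelial markers (Pecam1, Kdr, Flt1, Emcn, Egfl7, Tie1, Plvap and Cldn5) and at least 2 more than of any other marker list. They had passed a sort for a mesenchymal reporter, and whether they were endothelial cells alone, pairs of cells or cells with adhering fragments was not tested. Abcb1a was at 883 CPM in these barcodes of intact nerve (778 to 998), 112 at day 7 and 249 at day 21. Abcg2 was at 990.5 CPM (879 to 1112), 142 and 382. Both pumps were thus lower in the bridge on these barcodes too, Abcb1a 7.91-fold at day 7 (6.27 to 10.02) and 3.55-fold at day 21 (3.00 to 4.19), Abcg2 7.00-fold (5.68 to 8.66) and 2.59-fold (2.24 to 3.00).

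Unlike in perineurial cells, the pumps were higher at day 21 than at day 7 in the endothelial-marked barcodes. Abcb1a was 2.23-fold (1.78 to 2.80) and Abcg2 2.70-fold higher (2.23 to 3.29). The glucose carrier Slc2a1 was at 755 CPM in intact nerve, 25.5 at day 7 and 48.4 at day 21, 29.6-fold (19.4 to 47.1) and 15.6-fold lower (11.8 to 20.9). Kcnj2 was at 93.5, 7.45 and 11.9 CPM, so that at day 21 it was 7.85-fold below intact (4.08 to 15.6) in these barcodes while near intact in perineurial cells. Slc6a13, Kcnj13 and Hcn4 had 0 to 5 UMIs in each library there. The difference between the endothelial-marked barcodes and the perineurial class was not tested.

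**Figure D4:**
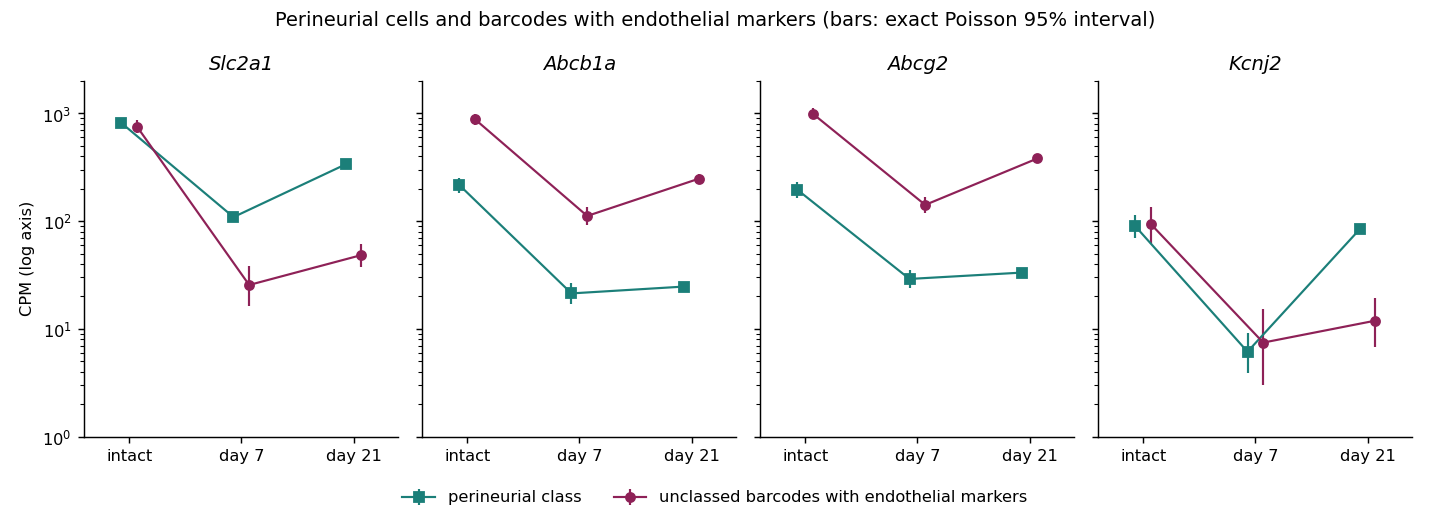
CPM on a log axis is plotted by library for 4 genes, in the perineurial class (green squares) and in unclassed barcodes with endothelial markers (red circles), with exact Poisson 95% intervals; lines join the libraries of 1 cell set and show no time course of the same animals. Abcb1a and Abcg2 lie higher in the endothelial-marked barcodes in all 3 libraries, and Slc2a1 and Kcnj2 lie lower there at day 21.

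Unclassed barcodes with perineurial markers by the same rule numbered 26, 6 and 35. Slc2a1 was at 722 CPM in those of intact nerve, 138 at day 7 and 252 at day 21, and Slc16a1 at 944, 117 and 209.7 CPM, both highest in intact. Day 21 and day 7 did not differ beyond counting error, at 1.82-fold (0.972 to 3.67) for Slc2a1 and 1.79-fold (0.904 to 3.88) for Slc16a1. Kcnj13 was at 189 CPM in intact and 21.0 at day 21, 9.01-fold lower (2.94 to 36.8), and Kcnj2 at 55.5 and 52.4 CPM. Slc6a13, near the intact level in the day 21 perineurial class, was at 333 CPM in intact and 121 at day 21 in these barcodes, 2.76-fold lower (1.55 to 4.98). Hcn4 was at 33.3 CPM in intact, from 3 UMIs, and 83.9 at day 21, unlike in the class, where day 21 was lower. Abcg2 was at 77.8, 74.4 and 31.5 CPM, from 6 or 7 UMIs in each library. These barcodes were not used in the annotation, but they come from the same libraries and are no replicate.

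Further carriers, pumps and channels of these families were examined as 6 lists of 112 genes that exclude the 8. In perineurial cells, 62 of them were counted in both intact nerve and day 21, of which 23 were more than 2-fold lower at day 21 and 5 more than 2-fold higher, with a median log2 ratio of -0.56. A further 16 were measured but had 0 UMIs in 1 of the libraries, and no fold is given for them. All features measured had 19% lower and 9.2% higher, with a median of -0.16, and these include features with 0 UMIs in 1 library. On that footing 25 of the 78 list genes measured were lower and 13 higher, with a median of -0.50. The counts per list below are over genes counted in both libraries.

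Of the sugar and monocarboxylate carriers, 5 of 9 counted in both were more than 2-fold lower and 0 higher. Slc16a9, a carnitine carrier, was at 13.5 CPM at day 21 against 222 in intact, 16.4-fold lower, and Slc5a3, the sodium-coupled inositol carrier, at 32.9 against 91.0, 2.77-fold lower. The other lower genes, Slc2a10, Slc2a4 and Slc16a10, rested on 2 to 6 UMIs in intact nerve. Of the amino acid and neurotransmitter carriers, 8 of 14 were more than 2-fold lower and 0 higher. The taurine carrier Slc6a6 was at 30.4 against 357 CPM, 11.7-fold lower. Slc6a12, a betaine and GABA carrier of the same family as Slc6a13, was at 6.88 against 29.0 CPM, 4.21-fold lower, and the cationic amino acid carrier Slc7a1 at 7.70 against 22.1 CPM, 2.86-fold lower.

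Of the organic ion and drug carriers, 4 of 9 were more than 2-fold lower and 1 higher. That 1 was the nucleoside carrier Slc29a1, at 216 against 49.6 CPM, 4.35-fold higher. The prostaglandin carrier Slco2a1 was at 46.4 against 153 CPM, 3.30-fold lower, and the organic anion carrier Slco3a1 at 17.0 against 59.3 CPM, 3.48-fold lower. Of the other ATP-binding cassette transporters, 0 of 8 were more than 2-fold lower and 2 higher. These were Abca1, which exports cholesterol, at 95 against 27.6 CPM, 3.44-fold, and Abca8a, at 142 against 57.9 CPM, 2.45-fold. Abca2 was at 19.6 against 30.3 CPM, with an interval that held 0. None of these 8 was more than 2-fold lower, as Abcb1a and Abcg2 were.

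Of the potassium and HCN channels, 2 of 7 measured and counted in both, Kcnk5 and Hcn2, were more than 2-fold lower and 1, Kcna1, higher. Hcn2, at 3.07 against 9.65 CPM, and Kcna1, with 85 against 1 UMIs, are named after their values were seen. The background potassium channel Kcnk5 was at 10.6 against 41.4 CPM, 3.90-fold lower, and the mechanosensitive Kcnk2 at 32.5 against 46.9 CPM, with an interval that held 0. Of the pumps, exchangers and water channels, 4 of 15 were more than 2-fold lower and 1 higher. Slc4a7, a sodium bicarbonate carrier, was at 19.8 against 56.5 CPM, 2.85-fold lower.

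**Figure D5:**
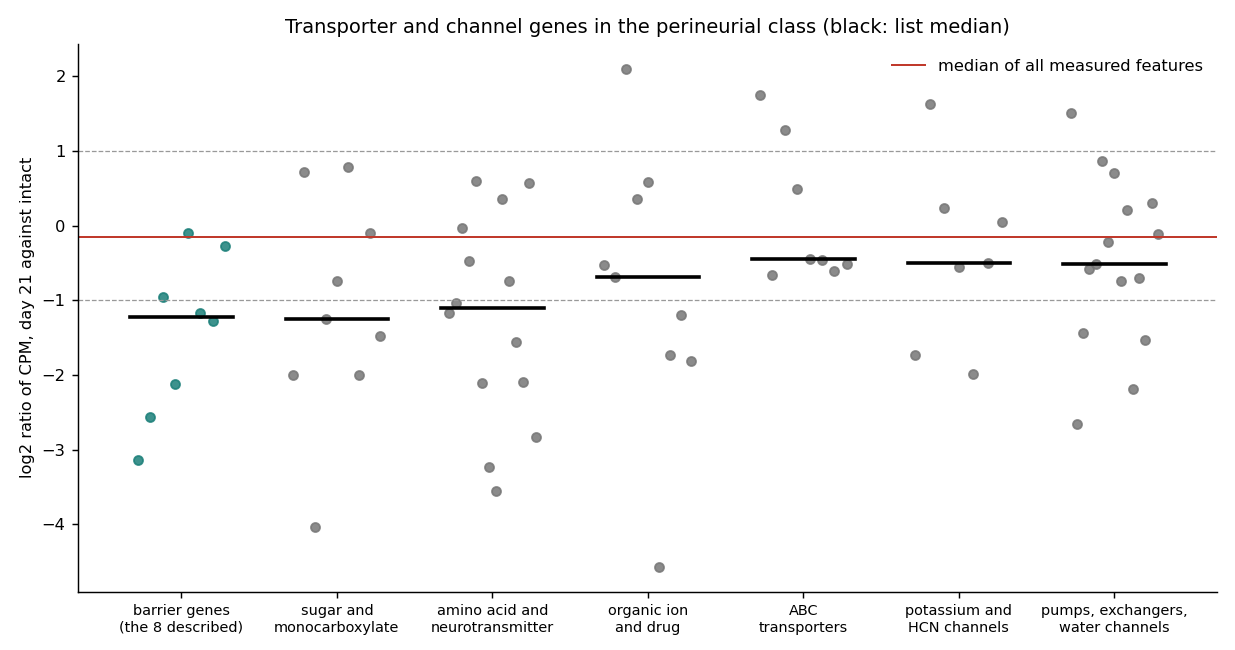
Each point is 1 gene, plotted by its log2 ratio of CPM in perineurial cells at day 21 against intact nerve, for the 8 described genes and for the 6 lists, over genes counted in both libraries; the black bar is the list's median, the red line the median of all measured features and dashed lines mark 2-fold. The 8 genes span -3.14 to -0.10, and the 2 ABC transporters past the upper line are Abca1 and Abca8a.

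At day 21 some genes of these lists were set apart from other annotated cells in the way the 8 were. Slco2a1 was 16.3-fold and Slco2b1 2.81-fold higher in perineurial than in other annotated cells, the chloride cotransporter Slc12a2 4.53-fold, the sodium pump subunit Atp1b3 3.48-fold and Slc5a3 2.31-fold. Atp1b1 was 10.6-fold, the glutamate carrier Slc1a3 6.51-fold, the channel subunit Kcne4 5.84-fold, Abca9 4.44-fold and Abca8a 3.45-fold lower. Over the 6 lists 15 of 91 genes measured were more than 2-fold higher, where 11.7% of 17773 features measured were, and 28 were lower, where 15.3% were. Of the 8 members, 7 were more than 2-fold higher, and the log2 ratio of the eighth, Abcg2, was 0.94 (0.73 to 1.14). At day 7 the same 7 were more than 2-fold higher, beside 12.2% of features measured, and Abcg2 was at 0.46 (0.15 to 0.75). Kcnj2 passed 2-fold narrowly there, at 1.09 (0.34 to 1.73) from 23 perineurial UMIs.

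Likeness of pattern was measured by Pearson's r of log2(CPM + 1) over the 14 combinations of class and library with at least 50 cells, which share libraries and depth, among 10013 genes that reach 10 CPM in 1 of them. The nearest to Slc2a1 were Hrh1 (0.98), Perp and Ankrd33b, and the nearest to Slc6a13 were Itgb4 (0.97), Inpp5f and Ocln. Slc16a1 was nearest to Gna14 (0.96), Snx4 and Slmap, Hcn4 to Rec114 (0.97), Krt19 and Itgb7, and Kcnj2 to Ssbp3 (0.94), Drp2 and Myo1c. Kcnj13 was nearest to Pde1c (0.98), Mybph and Slc6a12. Abcb1a was nearest to Znrf2 (0.94), Sema3d and Snhg11, and Abcg2 to Nebl (0.96), Gpm6a and Il17re. Within the 8 genes the highest r was that of Slc2a1 with Slc6a13 (0.94) and the lowest that of Slc6a13 with Abcb1a (0.60).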

How the data were processed

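Droplet single-cell RNA sequencing had been done on TdTomato-positive cells of mouse sciatic nerve, in 3 libraries of 1 sample each. The deposited matrices hold raw UMI counts, 1 whole number for each gene in each barcode. The submitters' processing notes name Cell Ranger 6.1.2 and 3.0.2, Seurat 4.0.1, mm10 and GRCm38, without saying which version made which library. Cell classes are the authors' own, from their deposited cell metadata, and 1 listed day 21 cell was not found in the matrix. No doublet caller was run, and whether doublets were removed before deposit is not given in the sources used here.

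UMIs were summed over the cells of a class and library and expressed as CPM. For log2 ratios, 0.5 counts were added to both sums, and more than 2-fold is the call used. With 1 library a group there was no test. Intervals are exact at 95% (Poisson for CPM, Clopper-Pearson for shares of cells, conditional binomial for ratios), cover counting error only, and were checked on simulated counts. PCR copies are collapsed by UMIs. A count of 0 was bounded by 3 counts per class and library. The members and gene lists were chosen with earlier results of these data known. Named list genes are up to 3 a list with the largest absolute log2 ratio and at least 20 CPM in the higher group, for day 21 against intact and for day 21 perineurial against other cells. Some genes that this rule picks are not reported here. The 3 genes most like each member were also named. The 4 genes with sequences, and Hcn2, Kcna1, Slc2a10, Slc2a4 and Slc16a10, were picked after their values were seen. Alternatives changed cell weighting, scaling, count filter, pseudocount (0.1), class mixture, class definition and barcodes used, and 3 were added after seeing the data. Python 3.11.15, numpy 2.4.6, scipy 1.17.1, pandas 2.3.3 and matplotlib 3.10.9 were used.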

Additional observations from a re-analysis of the deposited data

Results flagged for a closer look

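For 3 genes with UMIs in both libraries and both classes, the perineurial class and a fibroblast class moved in opposite directions between the same libraries, with intervals that do not hold 0 on either side. Each group is 1 library, and the difference between the classes was not tested.

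Slc16a1, the lactate and pyruvate carrier, differed from intact nerve at day 7 by a log2 ratio of 2.05 in endoneurial cells and 1.90 in epineurial cells, and of -2.28 in perineurial cells. At day 21 its log2 ratios were 2.35, 2.24 and -1.17 in the same order. Slc2a1 had a log2 ratio of 0.75 in endoneurial and -2.91 in perineurial cells at day 7, and of 0.84 in epineurial and -1.28 in perineurial cells at day 21. Hcn4 had a log2 ratio of 1.18 in epineurial and -0.95 in perineurial cells at day 21. At day 21 the Slc2a1 level of epineurial cells, 16.5 CPM, was not above that in barcodes with pericyte, Schwann or myeloid markers, 20.7, 19.3 and 25.0 CPM. At day 7 the endoneurial Slc2a1 level was 18.5 CPM (14.4 to 23.4). Its interval overlapped those of barcodes with pericyte markers, 10.3 CPM (6.32 to 16.0), and myeloid markers, 15.4 CPM (10.8 to 21.5). Barcodes with Schwann markers were lower, at 8.2 CPM (5.75 to 11.4). Abcb1a in endoneurial and Kcnj2 in epineurial cells had 0 UMIs in intact nerve and were at least 4.02-fold and 5.25-fold higher at day 7, while both were lower in perineurial cells. These day 7 levels were low, at 3.48 and 3.99 CPM. Each overlapped the highest level among day 7 barcodes with pericyte, Schwann or myeloid markers, 3.10 CPM for Abcb1a and 3.09 for Kcnj2, while the other sets were lower.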

How the results depend on the processing

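Of 552 alternative log2 ratios of the 8 genes, 534 had the sign of the value reported, and 133 of 138 counts of genes past 2-fold stayed within 1.5 times. The count filter and the pseudocount of 0.1 gave 72 of the ratios each. Neither setting moved any, and a filter cannot change the ratio of a gene that passes it. Of all single-gene values, 158 counted as moved, 5 as reversed and 413 as the same. With 1 class mixture 20 moved, 3 reversed and 1 stayed the same. For day 21 against intact nerve over all annotated cells, the 4 genes more than 2-fold higher became 0 and the 1 lower became 4 with 1 class mixture, where Slc6a13 was at -0.072, Slc16a1 at -0.67 and Hcn4 at -0.69. For day 21 against day 7 in perineurial cells, the 6 genes more than 2-fold higher became 3 among cells with at least 3 of 8 perineurial markers, 3 among annotated cells with at least 4, and 2 without cells holding 4 or more injury markers, where Slc16a1 was at -0.031 and Hcn4 at -0.10. The cause was not tested. For day 21 against intact in perineurial cells, log2 ratios ran from -3.41 to -3.06 for Abcb1a, from -2.81 to -2.49 for Abcg2, from -0.27 to -0.028 for Kcnj2 and from -0.43 to 0.26 for Slc6a13 over all alternatives. Median-of-ratios scaling moved the median of all genes by -0.12 for day 7 against intact perineurial cells and by 0.11 for day 21 against day 7 over annotated cells. Between perineurial and other cells the shift was 0.29, 0.10 and 0.14 in intact, day 7 and day 21. At day 7 that shift is larger than the margin by which Kcnj2 passed 2-fold, at a log2 ratio of 1.09 between perineurial and other cells. No paired analysis was possible because each group is 1 library. In the intact perineurial class 3 counts are 4.14 CPM, which limits what its depth can show.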
